A study of Mus musculus with 16 samples.

Results

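The 10 genes described here encode cell adhesion molecules of the cadherin superfamily and the alpha-catenins that tie such molecules to the actin skeleton. They are Cdh4, Cdh8, Cdh10, Cdh12, Cdh13 and Cdh18, the delta protocadherins Pcdh7 and Pcdh9, and the alpha-catenins Ctnna2 and Ctnna3. They were chosen by name, with earlier results of these data known. They make up 10 of the 34614 protein-coding and lncRNA gene bodies of the RefSeq annotation of mm10 that were counted. A gene body here runs from the first to the last annotated base, and the 10 bodies span between 197 kb (Cdh10) and 1570 kb (Ctnna3).

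The study asked which CpGs the maintenance methyltransferase DNMT1 modifies in the established mouse embryonic stem cell line E14TG2a, and genomic DNA was sequenced. The Het group (3 libraries) and the libraries of days 0, 2, 4 and 8 (2 each) came from cells heterozygous for the Dnmt1 N1580A knock-in, so that these cells also kept a wild-type allele. The WT group (3 libraries) and the WT control group (2 libraries) carried wild-type Dnmt1, and the labels do not say how these wild-type groups differ. All cells were electroporated with 1 mM Ado-6-azide, an azide-bearing analog of the methyl donor, and DNA was taken 3 h later. Day 0 is the naive state, kept in serum, LIF and a pair of kinase inhibitors (CHIR99021 and PD0325901). Days 2, 4 and 8 count from withdrawal of the inhibitors, with serum and LIF kept. The labels name neither the number of knock-in clones nor the culture state of the Het triplicate. Whether replicates came from separate cultures is not stated, and each p-value therefore reflects only how far these libraries spread, which may be technical.

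The deposited tables list CpG positions with the number of reads primed there. In the promoter windows whose sequence was at hand, 46170 distinct CpGs were listed. Counted once for each window that held them, 49281 of 49281 listed positions fell on the C of a CpG on the forward strand. The Het and day libraries held 4202118 to 25175264 reads. Day 0 libraries listed 390158 and 407127 positions, the later days 1267200 to 3065096, and the 5 wild-type libraries 960 to 9150. Reads carry no molecular identifiers, so the number of distinct positions is the main measure below, and intervals and floors hold counting error alone. Levels are given in ppm, the number of positions in a gene for every 1000000 positions listed in the same library, and densities as ppm per 100 kb of gene body.

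Cadherins hold neighbouring cells together through calcium-dependent extracellular repeats. The tail of a classical cadherin binds beta-catenin, which binds an alpha-catenin, which reaches actin. Cdh4 encodes R-cadherin, a type I classical cadherin, and Cdh8, Cdh10, Cdh12 and Cdh18 encode type II classical cadherins, best known from the nervous system. Cdh13 encodes T-cadherin, which is held in the membrane by a lipid anchor and has no such tail. The delta protocadherins have longer extracellular parts and act in sorting and wiring of neurons. Ctnna2 encodes the neural alpha-catenin and Ctnna3 the alpha-catenin of heart muscle junctions, while stem cells rely on E-cadherin (Cdh1) and Ctnna1. DNMT1 copies CpG methylation onto the new DNA strand after replication, and CpG-dense promoters are commonly free of methylation.

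RefSeq start sites give a first view of where within these genes the label was found. The promoter table (GRCm38.p6, 250 bases before to 50 after each start) held 11 windows for 8 of the 10 genes, with none for Cdh4 and Cdh13. The 250 bases upstream of 4 starts are shown because they hold the contrast between starts rich and poor in CpG. Capitals mark each CpG that was listed in at least 1 of the 11 Het and day libraries. The motif searched was CG, which reads the same on both strands and occurs in 94.6% of all windows.
Ctnna3, first start, chr10:63429848-63430097, plus strand: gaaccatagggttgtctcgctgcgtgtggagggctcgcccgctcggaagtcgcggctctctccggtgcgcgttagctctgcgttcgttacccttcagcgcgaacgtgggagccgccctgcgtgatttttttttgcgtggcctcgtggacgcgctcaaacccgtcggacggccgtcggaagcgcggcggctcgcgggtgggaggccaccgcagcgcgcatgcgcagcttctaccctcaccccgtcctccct
Ctnna3, second start, chr10:63457261-63457510, plus strand: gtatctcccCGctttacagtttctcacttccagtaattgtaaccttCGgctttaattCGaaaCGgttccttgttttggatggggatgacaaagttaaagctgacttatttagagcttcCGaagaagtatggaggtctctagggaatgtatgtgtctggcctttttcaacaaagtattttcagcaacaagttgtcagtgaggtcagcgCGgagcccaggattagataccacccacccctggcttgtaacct
Ctnna2, chr6:77979668-77979917, minus strand: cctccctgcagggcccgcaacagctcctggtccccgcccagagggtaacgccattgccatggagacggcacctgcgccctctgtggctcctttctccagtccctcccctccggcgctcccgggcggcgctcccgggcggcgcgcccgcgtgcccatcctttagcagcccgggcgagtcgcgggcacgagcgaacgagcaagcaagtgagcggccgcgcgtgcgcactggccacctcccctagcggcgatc
Cdh12, a start within the gene body, chr15:21111202-21111451, plus strand: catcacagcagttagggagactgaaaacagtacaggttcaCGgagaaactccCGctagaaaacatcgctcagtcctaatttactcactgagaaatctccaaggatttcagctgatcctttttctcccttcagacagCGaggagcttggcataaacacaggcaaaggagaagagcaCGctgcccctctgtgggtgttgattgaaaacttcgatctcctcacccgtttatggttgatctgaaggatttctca

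At the first Ctnna3 start, 0 of 36 upstream CpGs were listed in any library, and at the Ctnna2 start 0 of 30. At the second Ctnna3 start 6 of 7 upstream CpGs were listed. Of these 6, the CpG 132 bases before the start had reads in 3 libraries (10 and 9 on day 4, and 12 in day 8 replicate 2), and the other 5 had reads in 1 library each. At the Cdh12 start 4 of 7 upstream CpGs were listed. Their reads came only from Het replicate 2, day 4 replicate 1 and day 8 replicate 2, and the other Het and day libraries had none. In windows of 300 bases, the starts of Cdh8 (21 CpGs), Pcdh9 (18 and 19 in windows that overlap), Pcdh7 (11) and Cdh10 (2) had 0 listed CpGs, and that of Cdh18 had 1 of 12.

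These windows of 300 bases, held for 8 of the 10 genes, were set beside all promoter windows by their number of CpGs. In windows with 16 or more CpGs, 0 of 117 distinct CpGs of Ctnna2, Ctnna3, Cdh8 and Pcdh9 were listed, which allows a share of up to 2.56%, beside 1.94% of 261945 CpGs in all windows of that class. In windows with 6 to 15 CpGs, 12 of 39 (30.8%) were listed, beside 31.6% of 69133 in all such windows. Within this class the genes were uneven, with 6 of 7 listed at the second Ctnna3 start and 5 of 9 at that of Cdh12, against 1 of 12 at Cdh18 and 0 of 11 at Pcdh7. In windows with 1 to 5 CpGs, 1 of 4 (25%) was listed, at the last Ctnna3 start, beside 59.4% of 32892. A CpG that is not listed may still have been labelled below the depth of these libraries.

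The 10 gene bodies together held close to the same share of the listed positions in every group. The share was 0.265% ± 0.000271 (SD, n = 3) in Het, 0.248% ± 0.0071 (n = 2) on day 0, 0.261% ± 0.00566 on day 2, 0.255% ± 0.00261 on day 4 and finally, on day 8, 0.264% ± 0.00409. The 2 day 0 libraries, at 0.253% and 0.243%, lay at or below every other Het and day library. In the wild-type background, 22 of 10446 positions lay in the 10 bodies in the WT libraries pooled (0.211%, exact Clopper-Pearson 95% interval 0.132 to 0.319) and 28 of 12651 in the WT control (0.221%, 0.147 to 0.32). Both intervals hold the Het share, so the share of the few wild-type positions that fell in these genes was not distinguishable from that in Het at this depth. Cdh13, with 21 of the 50 wild-type positions, held the most, and Cdh10 had 0 of 23097 positions, which allows a share of up to 0.013%. Of the 50, 34 were also listed in a Het or day library.

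**Figure D1:**
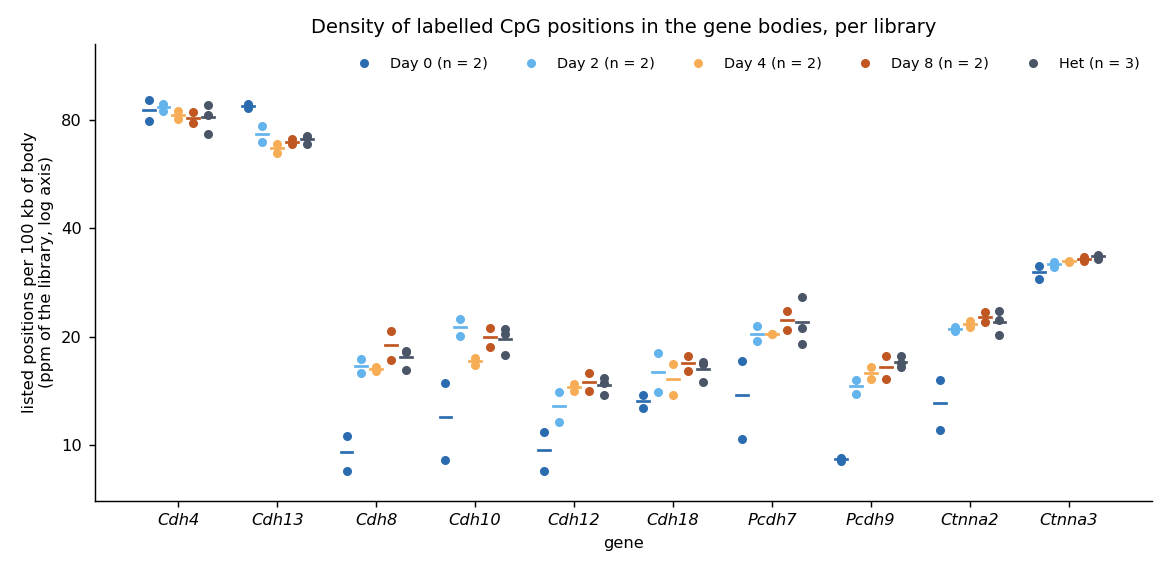
Density of listed CpG positions in each gene body, in ppm of the library's listed positions per 100 kb of body (log axis); each point is a library and each bar a group mean, for days 0, 2, 4 and 8 (n = 2) and Het (n = 3). Cdh4 and Cdh13 lie above 60 in every library, Ctnna3 between 28.9 and 33.8, and the other 7 genes below 26, with their day 0 points at the low end.

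Per length, the genes fell into 3 tiers. In Het the density was 81.2 ± 7.33 (SD, n = 3) for Cdh4, 70.7 ± 2 for Cdh13 and 33.4 ± 0.457 for Ctnna3, each apart from the next in every library. The other 7 ran from 22 ± 3.46 for Pcdh7 through Ctnna2 (22 ± 1.65), Cdh10 (19.8 ± 1.68), Cdh8 (17.6 ± 1.19), Pcdh9 (17 ± 0.636) and Cdh18 (16.2 ± 1.11) to 14.7 ± 0.834 for Cdh12. Among these 7, no neighbour in the order differed from the next beyond its spread. For scale, the median of 997 other protein-coding genes at least as long as Cdh10 was 40, with the middle 50% between 25.9 and 60.5. Cdh4 stood at the 92.6 percentile of these long genes and Cdh13 at the 84.1, whereas Cdh12 stood at the 8.12 and Cdh18 at the 9.83. On day 8 the order kept the same top 3 (81.2 ± 4.23 for Cdh4, 69.7 ± 1.8 for Cdh13 and 32.9 ± 0.636 for Ctnna3, n = 2). On day 0 Cdh13 (87.5 ± 1.73) and Cdh4 (85.2 ± 8) did not differ beyond their spread, and the other 7 below Ctnna3 lay between 9.13 (Pcdh9) and 13.8 (Pcdh7). By reads in place of positions, 8 of 10 genes kept their place in Het and on day 8, and 4 of 10 on day 0.

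The main comparison set day 8 against day 0, the ends of the move out of the naive state. Ctnna2, Cdh8, Pcdh9 and Cdh12 took a larger share of the listed positions on day 8, Cdh13 took a smaller share, and the other 5 genes did not pass the test (edgeR's quasi-likelihood test on 20415 gene bodies, fitted to the 8 day libraries with n = 2 for each day, with a Benjamini-Hochberg threshold of 0.05). Of all gene bodies tested 5.03% passed, 2.23% higher and 2.8% lower. Among 993 tested protein-coding genes at least as long as Cdh10, 24.4% passed, 104 higher and 138 lower. The median log2 change was 0.58 for the 10 genes, -0.02 for those long genes and 0.03 for all genes. The 10 were chosen with earlier results of these data known, so these medians and shares are a description only. With library totals in place of TMM scaling, the median over all genes was 0.1, the same 5 genes and Pcdh7 passed, and the split of calls over all genes was 571 higher and 415 lower, against 455 and 571.

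**Figure D2:**
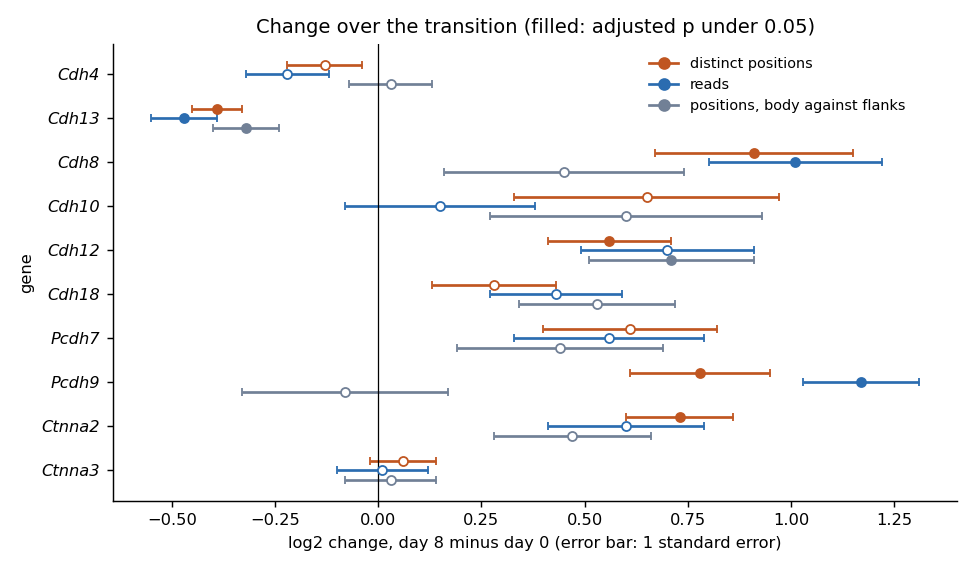
Log2 change from day 0 to day 8 for each gene, for distinct positions in the body, reads in the body, and positions in the body relative to 500 kb flanks; bars show 1 standard error and filled points have an edgeR adjusted p under 0.05. Distinct positions are filled for Ctnna2, Cdh8, Pcdh9 and Cdh12 to the right of 0 and for Cdh13 to the left, and only Cdh12 and Cdh13 are filled relative to their flanks.

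The type II cadherins of this set, Cdh8, Cdh10, Cdh12 and Cdh18, had few listed CpGs per length on day 0, as had Ctnna2, Pcdh7 and Pcdh9. Cdh8 (chromosome 8, 99024471 to 99417666) had 13 and 17 positions on day 0, 79 and 89 on day 2, 136 and 163 on day 4, and finally, on day 8, 207 and 212. In ppm these were 33.3 and 41.8, then 62.3 and 68.1, 65 and 63.3, and 67.5 and 81.4. Both day 0 libraries thus lay below the 6 later ones, and the later ones lay near the 63.6 to 72.2 of the Het libraries. The log2 change on day 8 was 0.91 ± 0.24 (SE; edgeR adjusted p = 0.0109). Cdh12 (chromosome 15, 20448878 to 21598421) had 38 and 51 positions on day 0, or 97.4 and 125 ppm, and 498 and 477 on day 8, or 162 and 183 ppm. Days 2 and 4 lay between 133 and 170 ppm, so that again every later library exceeded both of day 0. Its log2 change was 0.56 ± 0.15 (edgeR adjusted p = 0.0103).

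Cdh10 and Cdh18, the other type II cadherins of the set, also had their lowest group mean on day 0, but did not pass the test. Cdh10 (chromosome 15, 18818869 to 19016206), the shortest body, had 7 and 12 positions on day 0 and 113 and 109 on day 8, a log2 change of 0.65 ± 0.32 (edgeR adjusted p = 0.256, interval of 2 SE from 0.02 to 1.28). Cdh18 (chromosome 15, 22548898 to 23477491) had 50 and 48 on day 0 and 457 and 427 on day 8, a log2 change of 0.28 ± 0.15 (edgeR adjusted p = 0.311, -0.02 to 0.58). In both the day 8 values in ppm lay above those of day 0 (36.9 and 41.9 against 17.9 and 29.5 for Cdh10, 149 and 164 against 128 and 118 for Cdh18). These intervals leave room for changes of the size seen in Cdh8 for Cdh10, but not for Cdh18.

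Cdh13 moved the other way. T-cadherin's gene (chromosome 8, 118140017 to 119324929) had 410 and 416 positions on day 0, then 1157 and 1077 on day 2, 1606 and 2091 on day 4, and at the end 2576 and 2109. Relative to each library this was 1050 and 1020 ppm on day 0, 913 and 823 on day 2, 767 and 812 on day 4, and finally, on day 8, 840 and 810, beside 811 to 856 in Het. The day 0 libraries were the highest of the 11, with no overlap, and the log2 change on day 8 was -0.39 ± 0.06 (edgeR adjusted p = 7.14e-08). Cdh13 passed, in the same direction, in each of the 15 alternative fits, with log2 changes between -0.39 and -0.32. R-cadherin's gene Cdh4 (chromosome 2, 179442423 to 179899377) was denser in listed CpGs than Cdh13 in Het. It had 162 and 148 positions on day 0 and 1179 and 930 on day 8. That is 415 and 364 ppm against 385 and 357, which overlap, and a log2 change of -0.13 ± 0.09 (edgeR adjusted p = 0.466, -0.31 to 0.05).

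Of the delta protocadherins, Pcdh9 passed. Pcdh9 (chromosome 14, 93013700 to 93892834) had 31 and 33 positions on day 0, 155 and 175 on day 2, 304 and 347 on day 4, and finally, on day 8, 412 and 404. In ppm these were 79.5 and 81.1 on day 0, 122 and 134 on day 2, 145 and 135 on day 4, and finally, on day 8, 134 and 155, so every later library lay above both of day 0. The log2 change on day 8 was 0.78 ± 0.17 (edgeR adjusted p = 0.000868). Pcdh7 (chromosome 5, 57716145 to 58133236) had 17 and 29 positions on day 0 and 267 and 256 on day 8. Its day 0 libraries differed more from each other, at 43.6 and 71.2 ppm, than those of day 8, at 87.1 and 98.4. The log2 change was 0.61 ± 0.21 (edgeR adjusted p = 0.0626), and Pcdh7 passed in 5 of 15 alternative fits.

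The 2 alpha-catenin genes differed in their values. Ctnna2 (chromosome 6, 76881637 to 77979815), which holds the gene Lrrtm1 within its body, had 65 and 49 positions on day 0, 296 and 298 on day 2, 490 and 624 on day 4, and finally, on day 8, 742 and 668. In ppm these were 167 and 120 on day 0 and 228 to 257 on the later days, without overlap. The log2 change on day 8 was 0.73 ± 0.13 (edgeR adjusted p = 9.42e-06). Ctnna3 (chromosome 10, 63430098 to 65003667), which holds Lrrtm3, had 193 and 185 on day 0 and 1564 and 1365 on day 8, or 495 and 454 against 510 and 524 ppm. Its log2 change was 0.06 ± 0.08 (edgeR adjusted p = 0.77, -0.11 to 0.22), an interval that lies below the change of Ctnna2. The difference between the 2 genes was not tested.

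The calls among the rises changed when either day 0 library was left out (these 2 list the fewest positions), while the log2 changes stayed above 0. Without day 0 replicate 1, Ctnna2 alone of the 4 passed (edgeR), and the log2 changes were 0.79 for Cdh8 (adjusted p = 0.238), 0.42 for Cdh12 (0.306) and 0.80 for Pcdh9 (0.0546). Without day 0 replicate 2, Cdh12 alone of the 4 passed, with 1.13 for Cdh8 (0.0993), 0.84 for Pcdh9 (0.0561) and 0.56 for Ctnna2 (0.0854). Without day 8 replicate 2, Cdh8 (0.79, adjusted p = 0.0638) and Cdh12 (0.49, 0.057) did not pass. With every library thinned to 390158 positions, the number of the smallest library, Ctnna2 and Cdh13 passed, and the log2 changes were 0.95 for Cdh8 (adjusted p = 0.0671), 0.50 for Cdh12 (0.137) and 0.75 for Pcdh9 (0.0533).

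Counting reads in place of positions gave the same signs for all 10 genes. Pcdh9 (log2 change 1.17 ± 0.14, adjusted p = 0.0153) and Cdh8 (1.01 ± 0.21, 0.0428) rose and Cdh13 fell (-0.47 ± 0.08, 0.0275) by the edgeR test on reads, which called 2.51% of 30249 gene bodies (1.79% higher and 0.721% lower). Ctnna2 (0.60 ± 0.19, adjusted p = 0.106) and Cdh12 (0.70 ± 0.21, 0.103) did not pass. Without any 1 of the 6 libraries of days 2, 4 and 8, 0 of the 10 genes passed on reads (edgeR; 0 to 4 of all gene bodies passed, and 3596 to 6506 had an unadjusted p under 0.05), with adjusted p for Pcdh9 between 0.0745 and 0.218. In these 6 fits the log2 changes on reads lay between 1.09 and 1.25 for Pcdh9, 0.90 and 1.13 for Cdh8, and -0.49 and -0.44 for Cdh13. Without day 0 replicate 1 the log2 changes on reads were 1.1 for Pcdh9, 0.92 for Cdh8 and -0.35 for Cdh13. Without day 0 replicate 2 they were 1.24, 1.13 and -0.57. Reads per position were higher on day 0 than on day 8. A member's reads per position ran from 7.74 to 17.4 on day 0, from 3.54 to 4.31 on day 8 and from 6.64 to 12.3 in Het. Whole libraries differed likewise, with 10.8 and 12 reads per position on day 0, 4.11 and 4.05 on day 8, and 7.35 to 11.6 in Het. The most read position of Cdh10 held 40.7% of its reads in day 0 replicate 2, where 145 reads fell on only 12 positions. On day 8 the largest such share for any of the 10 genes was 3.25%.

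Of the 5 genes called on day 8, 2 were also called on day 2. On day 2 against day 0, Ctnna2 rose (log2 change 0.65 ± 0.14, edgeR adjusted p = 0.00184) and Cdh13 fell (-0.29 ± 0.06, 0.00198), where 1.15% of gene bodies passed (0.446% higher and 0.7% lower). Pcdh9 had 0.64 ± 0.19 (adjusted p = 0.0553) and Cdh8 0.75 ± 0.27 (0.148). Without day 0 replicate 2 neither of the 2 called genes passed on day 2, and Cdh13 was not called without day 0 replicate 1 or day 2 replicate 2 either. On day 4 against day 0, where 4.45% passed (1.83% higher and 2.62% lower), Ctnna2 (0.66 ± 0.13, adjusted p = 0.000203), Pcdh9 (0.72 ± 0.18, 0.00373) and Cdh12 (0.50 ± 0.15, 0.0364) rose and Cdh13 fell (-0.47 ± 0.06, 7.88e-11). Without day 0 replicate 1 or 2, 1 and 0 of these 3 rises passed. These comparisons share the day 0 libraries. Day 8 against day 2, which leaves out day 0, called 0 of the 10 genes by edgeR, where 0.225% of gene bodies passed (0.127% higher and 0.098% lower), and 0 by DESeq2. Of all gene bodies 26 were higher and 20 lower (56.5% higher), against 30 and 8 (78.9%) when scaled by library totals. Cdh4, Cdh12 and Cdh13 had an unadjusted edgeR p under 0.05 (0.0445, 0.0238 and 0.024). The log2 changes of the 10 lay between -0.13 (Cdh10) and 0.20 (Cdh12), with a median of 0.06.

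Related genes came from 3 lists chosen with these data known (positions, day 8 against day 0, edgeR). Of 17 other cadherins, Cdh11 rose (1.21 ± 0.33, adjusted p = 0.0127), and Cdh5, the endothelial cadherin, and Cdh23, the cadherin of hair cell tip links, fell (-1.20 ± 0.24, 0.000182, and -0.28 ± 0.09, 0.0476). The median of the 17 was -0.15. E-cadherin's gene Cdh1 (0.17, adjusted p = 0.779) and N-cadherin's gene Cdh2 (-0.15, 0.739) did not pass. Of 10 other non-clustered protocadherins 8 were tested, Pcdh15 rose (0.46 ± 0.11, adjusted p = 0.00124), and the median was 0.69. Of 12 catenins and relatives, Jup, which encodes plakoglobin, rose (1.98 ± 0.46, adjusted p = 0.00234), Ctnnd2 fell (-0.41 ± 0.09, 0.000989), and the median was 0.06. Ctnna1, the alpha-catenin of most epithelia, had -0.28 (adjusted p = 0.545).

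The direction of change went with how many CpGs of a body were ever listed. The 3 Het libraries together listed 5.18 distinct positions per kb of Cdh4, 4.46 of Cdh13, 2.2 of Ctnna3, and between 1.02 (Cdh12) and 1.46 (Ctnna2) in the other 7 genes. When the 993 other long genes were split into 4 groups by this density, which does not use the day libraries, the sparsest group (up to 1.73 per kb) had a median log2 change of 0.44, with 76 of 249 higher (30.5%) and 4 lower. The densest group had a median of -0.20, with 9 of 248 higher and 74 lower. All 7 sparse genes fell in the range of the sparsest group, Ctnna3 in that of the next (median 0.06), and Cdh4 and Cdh13 in that of the densest. In that sense the rises of Ctnna2, Cdh8, Pcdh9 and Cdh12 (4 of 7) stood beside rises in 30.5% of other long genes of like density, and the fall of Cdh13 beside falls in 29.8%. Over the 993 genes Spearman's rho was -0.54, a description across genes that share the same libraries. Positions per kb also depend on the number of CpGs in the sequence, which was not used here, and on the depth of the Het libraries.

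**Figure D3:**
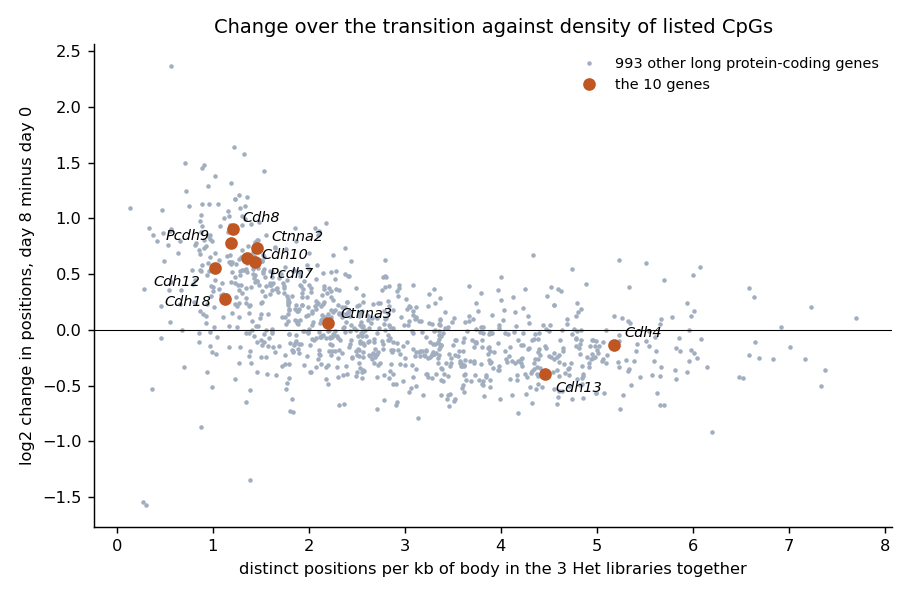
Log2 change in distinct positions from day 0 to day 8 (edgeR) against distinct positions per kb of gene body listed in the 3 Het libraries together; grey points are 993 other long protein-coding genes and large points the 10 genes. The 7 genes at 1.02 to 1.46 positions per kb lie between 0.28 and 0.91, and Cdh13 at 4.46 lies at -0.39.

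Bodies were then set against 500 kb on either side, since a gene can move with its neighbourhood. Relative to its flanks Cdh12 rose (0.71 ± 0.20, edgeR adjusted p = 0.0132) and Cdh13 fell (-0.32 ± 0.08, 0.00342) between day 0 and day 8, where 11.6% of 2705 genes of 100 kb or longer passed (7.02% higher and 4.62% lower). The body of Cdh12 went from 0.667 ± 0.138 (SD, n = 2) times the density of its flanks to 1.1 ± 0.0227, and that of Cdh13 from 0.996 ± 0.0102 to 0.798 ± 0.000296. The change of the Pcdh9 body did not differ from that of its flanks beyond the error (-0.08 ± 0.25, adjusted p = 0.898), with a body 1.3 ± 0.0742 times as dense as its flanks on day 0 and 1.23 ± 0.0176 times on day 8. The density of its right flank went from 4.06 to 12. Cdh18 (0.53 ± 0.19, adjusted p = 0.0629), Ctnna2 (0.47 ± 0.19, 0.11) and Cdh8 (0.45 ± 0.29, 0.343) did not pass. With flanks of 200 kb, Cdh12 had 0.27 (adjusted p = 0.664). With flank bases outside genes, Cdh13 had -0.18 (0.229), and without day 0 replicate 1 or 2 its adjusted p was 0.078 and 0.114, and without replicate 1 that of Cdh12 was 0.312.

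**Figure D4:**
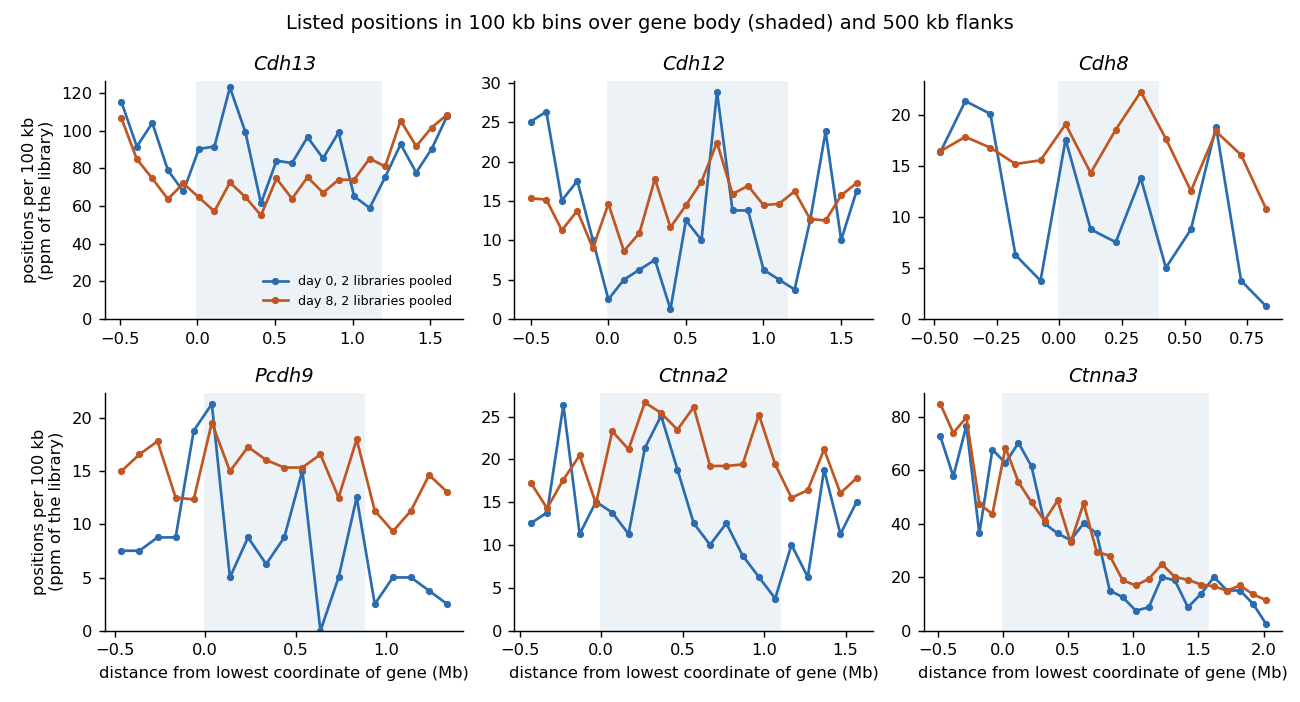
Listed positions, in ppm of the library, in 100 kb bins over the body (shaded) and 500 kb flanks of 6 of the genes, with the 2 libraries of day 0 and of day 8 pooled; the x axis is the distance from the gene's lowest coordinate. In Cdh13 the day 0 line lies above that of day 8 in the lower part of the body, and in Ctnna2 it lies below in the upper end of the body.

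Bodies and flanks were also divided into bins. Of 85 body bins of 100 kb, 7 were higher on day 8 and 4 lower (edgeR adjusted p under 0.05 over 25103 bins of the genome, of which 10.4% passed, 3.81% higher and 6.56% lower). Of 100 flank bins, with that at chromosome 15, 22000001 to 22100000 counted for both Cdh12 and Cdh18, 6 were higher and 4 lower. Whether the bodies differed from the flanks or the genome in the share of bins called was not tested. All 4 lower body bins were neighbours at the low end of Cdh13, from 118100001 to 118500000, with log2 changes from -0.82 to -0.55. In 4 equal parts of its body, from low to high coordinates, the ratio of day 8 to day 0 positions in ppm was 0.621, 0.802, 0.767 and 1.07. At the upper end of Ctnna2, which holds the printed start, 2 neighbouring bins were higher (log2 change 1.93 ± 0.51 and 2.28 ± 0.63, adjusted p = 0.0061 and 0.00821). The last of 4 equal parts of Ctnna2 had 6 and 8 positions on day 0 and 184 and 159 on day 8, a ratio of 3.46 against 1.25 to 1.71 in the other 3.

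Most of the other called bins listed few positions on day 0. A bin of Pcdh9 (chromosome 14, 93600001 to 93700000) had 0 positions on day 0 and 94 on day 8, at least 4.41-fold higher taking 3 positions in the pooled day 0 libraries as the floor (edgeR adjusted p = 0.000153). In Cdh10 the lower bin had 1 position on day 0 and 91 on day 8 (log2 change 3.54 ± 0.89, adjusted p = 0.00269). Cdh12 had 2 such bins, with 2 and 1 positions on day 0 and 83 and 66 on day 8 (adjusted p = 0.0216 and 0.023), and Cdh4 had 1, with 44 and 499 (0.61 ± 0.22, 0.0474). In genes that did not pass as a whole the ratios also varied between parts, but this was not tested. The last of 4 parts of Pcdh7 and Cdh18 had ratios of 3.68 and 2.88, while the first had 1.06 and 0.755. Those last parts held only 2 and 3 positions on day 0 in Pcdh7, and 5 and 4 in Cdh18. Ctnna3 had 0.885 in the first part and 1.95 in the third. In each of these 3 genes 0 body bins passed. Fewer bins passed without day 0 replicate 1 or 2, both in the bodies and over the genome. With libraries thinned to equal positions 0 of 46 body bins tested passed, where 656 of 18407 bins of the genome did (edgeR, with 3379 at an unadjusted p under 0.05).

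Positions were then followed one by one across libraries. Of the 32615 positions listed in the 10 bodies in any of the 11 Het and day libraries, 53.5% were listed in 1 library only, from 41.1% in Cdh4 to 67.6% in Pcdh9. A position of Cdh4 (chromosome 2, 179799947) recurred most, in 8 of the 11 libraries, with 19, 3 and 26 reads in Het, 3 and 16 on day 2, 7 in day 4 replicate 2, 2 and 3 on day 8, and none on day 0. Of the positions of day 0 replicate 1 in the 10 bodies, 3.85% were also in replicate 2, against 8.9% on day 2, 16.6% on day 4 and finally, on day 8, 16.7%. As a share of replicate 2 these were 3.85%, 8.89%, 13.3% and 19.3%. For Ctnna2, Cdh8 and Cdh10 the 2 day 0 libraries shared 0 positions. These shares move with the number of positions listed, so they are no measure of a change in the cells.

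The genes whose profile over the 8 day libraries was most like the mean of the 10 were Gm32647 (Pearson r = 0.995), Csmd1 (0.992) and Ptprd (0.992), among 4052 genes with at least 507 positions that overlap none of the 10. All 3 are long, from 1280 to 2270 kb, and sparse, with 0.845 to 1.46 positions per kb in Het. They were picked on these same libraries, so their log2 changes on day 8, 0.46 for Gm32647, 0.44 for Csmd1 and 0.50 for Ptprd, are given without a test.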

How the data were processed

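The 16 libraries of genomic DNA from E14TG2a cells were grouped by the sample titles. Per the labels' protocols, a biotinylated oligonucleotide was clicked onto the azide, and DNA captured on it was primed from it, amplified and read by Ion Proton. The submitters' processing notes name cutadapt 4.4, BWA 0.7.17-r1188, SAMtools 1.12 and build mm10. Their parameters and the duplicate filter were not given in the sources used here.

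Each deposited table belongs to 1 library and lists a chromosome, a position and its coverage. Per the file headers, coverage is a count of reads, at least 1 for a listed position, without normalization by the authors. Reads and distinct positions were summed from first to last base of each RefSeq gene (GRCm38.p6, the coordinates of mm10), in 100 kb bins, and in flanks of 500 kb. A base in several genes counted for each. Without strand, overlapping and antisense genes cannot be told apart. Library sizes were all reads or positions of a library.

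Tests used edgeR 4.0.16 in R 4.3.3 on the counts of the 8 day libraries (filterByExpr, then TMM factors of 0.962 to 1.03, then glmQLFit and glmQLFTest), with Benjamini-Hochberg adjustment at 0.05. The standard error is the log2 change over the square root of F. Body against flank was the interaction of compartment and day with library as a block, over genes of 100 kb or longer. The fitted common biological variation (as a coefficient) was 0.488 on reads and 0.00988 on positions, the latter close to counting error. DESeq2 1.42.0 was an alternative, beside library totals, no filter, the 4 libraries compared, a replicate block, bases of 1 gene only, equal positions and leaving out each library. Simulated data for 20415 genes held planted day 8 rises and no falls, only in genes whose mean count reached the median. The day 8 test on positions found 55% of the 2-fold and 100% of the 4-fold rises and called 7 unchanged genes. On reads for 30249 genes, with rises planted in the same way, the test found 20% and 80% and called 4 unchanged genes. Recovery in sparser genes and of falls was not tested.

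The 10 genes were named by the rule that takes all members, and list genes by the rule that takes up to 4 that passed per list plus Cdh1, Cdh2 and Ctnna1. Members and lists were chosen with earlier results of these data known. The counts of listed promoter CpGs were added after the tables had been seen. Counting used Python 3.11.15 with pandas 2.3.3, and numpy 2.4.6 and scipy 1.17.1.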

Additional observations from a re-analysis of the deposited data

How the results depend on the processing

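Correlations of replicate differences in positions between days ran from -0.013 to 0.0175. Positions spread close to counting error, so these values cannot show whether replicate numbers pair the libraries. With the replicate block the number of higher genes among the 10 went from 2 to 1 on reads, where Cdh8 had an edgeR adjusted p of 0.0751. No call among the 10 changed on positions. The block gave 127 calls over all gene bodies on reads, against 760, and 990 on positions, against 1026. On reads DESeq2 called 5187 of 33039 gene bodies, with 4 of the 10 higher and 2 lower. The 4 libraries alone gave 0 calls among 27570 gene bodies (4074 at an unadjusted edgeR p under 0.05), with 0 of the 10 higher and 0 lower. Leaving out a library gave 0 to 7655 calls on reads, with 0 to 5 of the 10 higher and 0 to 2 lower. On positions the calls were 593 of 33039 gene bodies with DESeq2, 431 of 17950 with the 4 libraries and 305 of 8364 with equal positions, against 1026 of 20415. Among the 10, 2 were higher with the 4 libraries and 1 with equal positions. Over the 15 alternative fits on positions, the log2 changes of Cdh8 lay between 0.79 and 1.13 and those of Cdh12 between 0.42 and 0.8. Those of Pcdh9 lay between 0.69 and 0.92 and those of Ctnna2 between 0.56 and 1.01. On day 2, 2 were higher with library totals, with no filter and with bases of 1 gene only, 0 were lower with no filter, and 0 to 2 higher and 0 to 1 lower without a library. On day 4, 0 were higher with equal positions and 0 to 3 without a library. Body bins higher were 0 with DESeq2 and 0 with equal positions, where 0 were lower, and 1 to 7 without a library, with 0 to 4 lower. Relative to flanks, 0 genes were lower with flank bases outside genes, and 0 to 1 were higher and 0 to 1 lower without a library. The share in the 10 bodies by reads was 0.264% in Het and 0.276% in WT, and 4 genes kept their place on day 0.

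Signs turned only in values that did not pass. Ctnna3 on reads had -0.02 with DESeq2, -0.02 with bases of 1 gene only, -0.16 to 0.21 without a library, the lowest without day 0 replicate 2. Relative to flanks, Cdh4 had -0.20 with flanks of 200 kb, -0.01 with equal positions and -0.03 to 0.09 without a library. Pcdh9 had 0.59 with flanks of 200 kb and 0.06 with equal positions, and Ctnna3 -0.04 to 0.10 without a library. The cause was not tested. Other splits between higher and lower calls moved by over 10 percentage points with scaling. With library totals 50.8% of calls were higher on day 2, 59.2% on day 4 and 48.7% of bins on day 8, against 38.9%, 41.2% and 36.7%, and 81.7% against 71.3% on reads, and 78.9% against 56.5% for day 8 against day 2. With DESeq2 13.7% of the bins called were higher on day 8. The 390158 and 407127 positions of day 0 limit all comparisons with it.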
